A study of Mus musculus with 20 samples.

Results

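Germline and meiosis genes are a class known, in other cell types, to be kept silent with the help of the H3K9 methyltransferase G9a, which is encoded by Ehmt2. Here 42 of them were followed in single 8C mouse embryos with and without maternally inherited G9a. The members were chosen by gene symbol from a written list, and all 42 were found among the 34937 Ensembl genes counted in each embryo. By role, 18 belong to the piRNA pathway, 7 to the synaptonemal complex, 5 to meiotic cohesin and the chromosome axis, 6 to meiotic recombination, and 6 are other germ cell genes.

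RNA was measured in 9 control embryos (Ehmt2Cntr, numbers 1 to 3 and 5 to 10) and 10 embryos of maternally depleted litters (Ehmt2Mat), all at E2.5 and of mixed genetic background. Control number 4 is not analysed here. Control mothers were Ehmt2F/+ Zp3-Cre+ve and mothers of Ehmt2Mat embryos were Ehmt2F/- Zp3-Cre+ve, so both groups had mothers with the conditional allele F and with Cre, and the fathers were Ehmt2+/-. The Zp3 promoter drives Cre in the growing oocyte, so the allele is recombined in the female germ line and not in the embryo's own cells. By zygotic genotype, 6 controls were +/+ and 3 were +/-, while 5 Ehmt2Mat embryos had a functional zygotic copy (Ehmt2M/+) and 5 had none (Ehmt2M/Z). Embryos that looked abnormal had been left out by the authors, cDNA was amplified embryo by embryo with a method that favours the 3′ end of transcripts, and no mother or litter is named in the labels. The p-values below treat each embryo as independent.

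The piRNA pathway makes small RNAs that guide PIWI proteins to transposon transcripts in germ cells. Meiosis pairs homologous chromosomes along a protein axis, joins them by the synaptonemal complex and exchanges DNA between them by recombination. Most genes of both processes are silent in somatic tissues, where DNA methylation and repressor complexes with MGA, MAX, E2F6 and G9a are known to hold down many of them. The oocyte uses several of the same genes, and an 8C embryo can still carry transcripts from the oocyte.

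For the 5 members whose level differed between the groups (below), the 250 bases before the transcription start are shown because the known repressors recognise short sequences there. Sequences are from RefSeq (GRCm38.p6), 5′ to 3′ on the gene's strand, and capitals mark CACGTG, the palindromic E-box that MAX dimers are known to bind, or TCCCGC, an E2F6-type sequence, which reads GCGGGA where it lies on the opposite strand. The windows are chr6:49395354-49395603 (plus strand) for Stk31, chr8:84871861-84872110 (plus) for Syce2, chr3:95559427-95559676 (plus) for Hormad1, chr7:24672051-24672300 (minus) for Tex101 and chr4:107684231-107684480 (minus) for Dmrtb1.
Stk31: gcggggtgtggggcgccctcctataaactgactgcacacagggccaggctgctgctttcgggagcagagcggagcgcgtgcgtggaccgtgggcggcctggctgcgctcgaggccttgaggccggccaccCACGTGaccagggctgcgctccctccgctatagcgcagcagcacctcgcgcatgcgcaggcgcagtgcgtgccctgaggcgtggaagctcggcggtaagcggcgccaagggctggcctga
Syce2: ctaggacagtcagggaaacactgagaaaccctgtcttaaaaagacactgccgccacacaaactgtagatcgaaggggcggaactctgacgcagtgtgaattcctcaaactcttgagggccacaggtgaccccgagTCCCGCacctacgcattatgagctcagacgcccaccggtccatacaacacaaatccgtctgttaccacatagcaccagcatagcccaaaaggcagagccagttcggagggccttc
Hormad1: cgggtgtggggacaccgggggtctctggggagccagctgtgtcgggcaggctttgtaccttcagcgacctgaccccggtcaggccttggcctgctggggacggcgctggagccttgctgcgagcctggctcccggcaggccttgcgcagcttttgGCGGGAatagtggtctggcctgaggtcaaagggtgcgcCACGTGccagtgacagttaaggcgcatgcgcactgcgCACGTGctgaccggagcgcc
Tex101: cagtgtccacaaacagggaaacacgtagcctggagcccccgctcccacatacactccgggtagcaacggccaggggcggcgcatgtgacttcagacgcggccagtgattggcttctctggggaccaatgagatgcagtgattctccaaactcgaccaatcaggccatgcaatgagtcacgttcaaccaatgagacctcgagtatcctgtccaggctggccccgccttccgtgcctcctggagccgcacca
Dmrtb1: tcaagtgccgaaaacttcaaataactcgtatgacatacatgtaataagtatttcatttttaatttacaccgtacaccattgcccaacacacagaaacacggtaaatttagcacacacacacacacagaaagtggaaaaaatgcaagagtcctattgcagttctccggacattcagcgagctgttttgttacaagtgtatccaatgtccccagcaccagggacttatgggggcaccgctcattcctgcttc
Hormad1 holds CACGTG beginning 57 and 20 bases before the start and TCCCGC 95 bases before it. Stk31 holds CACGTG 120 bases before the start, and Syce2 holds TCCCGC 115 bases before it. Tex101 and Dmrtb1 have neither run of letters in this window. A RefSeq window of 300 bases (250 before and 50 after the start) was matched for 35 of the 42 members. Of these, 15 (42.9%) hold CACGTG on either strand, against 8.18% of 17037 promoters of all genes, and 14 (40%) hold TCCCGC, against 26.3%. In the lists of other meiosis genes, other piRNA genes, repressors and germ cell regulators described below, CACGTG was in 14.3%, 16.7%, 9.52% and 36.4%. TCCCGC was in 71.4%, 58.3%, 47.6% and 27.3% of them. The median number of CG pairs in the window was 20 in members and 14 over all promoters, and each motif contains CG. Both motifs occur in 8 members (22.9%), against 2.79% of all promoters, and the motifs can overlap only by a shared end base. Among the members tested between groups, CACGTG was present in 2 of the 5 that differed (40%) and in 12 of 26 that did not pass the threshold (46.2%), so its share was no higher in those that differed. These are descriptions of letters in a window and were not tested. No promoter entry was matched for Piwil1, Piwil2, Tdrd6, Spo11, Mei1, Meiob and Tex15.

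Total counts ranged from 12985149 to 30053248 in controls and from 8231646 to 30602434 in Ehmt2Mat embryos, so that 3 counts, the minimum taken here as detection, were worth 0.0980 to 0.364 CPM (counts relative to the library total). Levels below are CPM scaled by TMM unless another unit is named. The targeted gene Ehmt2 had 66.6, 133 and 253 CPM as the lowest, median and highest control and 58.7, 94.9 and 159 CPM in Ehmt2Mat embryos, with a mean of 141 CPM ± 60 (SD, 9 embryos) in controls and 102 CPM ± 33 (SD, 10 embryos) in Ehmt2Mat embryos, with overlapping ranges. Its log2 fold change was -0.47, with an adjusted p of 0.23 by edgeR's quasi-likelihood test, and the two-sided exact permutation test gave p = 0.0983, so the labels are not checked by the transcript level of this conditional allele. Of 8 markers of the 8C embryo, all 8 were present in every embryo. Between the groups 5 differed (62.5%, against 9.35% of all genes tested). Tfap2c and Tead4 were higher and Sall4, Klf4 and Klf5 lower in Ehmt2Mat embryos. The paper calls the sequenced embryos alike in morphology, but reports a mild delay in development without maternal G9a. Whether stage bears on the differences below was not tested. RNA of oviduct markers was counted in the embryos, and whether it came from oviduct cells or from the embryo itself was not tested. Ovgp1, the oviductal glycoprotein gene, was above the control median in all 10 Ehmt2Mat embryos (log2 fold change 3.41, adjusted p = 0.0926 by edgeR and 0.0340 by DESeq2). It reached at least 100 CPM in control 10 and in Ehmt2Mat embryos 1, 2, 3, 4 and 6. The summed level of the 4 matched oviduct markers (Ovgp1, Pax8, Foxj1 and Krt7) was 0.0904 to 386 CPM in controls and 10.0 to 2840 CPM in Ehmt2Mat embryos. Main results are therefore also given without these 6 embryos (8 controls and 5 Ehmt2Mat embryos left), a choice made after seeing the data. Of 10 cumulus and granulosa cell markers, 5 had a count in any embryo, with Amh, Foxl2, Has2, Ptx3 and Fshr at 0 in all 19. Their summed level was 260 to 888 CPM in controls and 222 to 518 CPM in Ehmt2Mat embryos, nearly all of it Nr5a2, which embryos express themselves. Inha and Pgr each had at least 3 counts in 1 control and 4 Ehmt2Mat embryos, Tnfaip6 in 0 and 2, and Cyp19a1 in 2 and 1. The highest Inha level was 38.2 CPM, in Ehmt2Mat embryo 3. Of 6 sperm markers only Prm1 and Prm2 had a count, and the summed level was at most 1.23 CPM. Of 12 oocyte transcripts, 11 passed the filter on low counts, and their group of 12 summed to 236 CPM ± 91 (SD, 9 embryos) in controls and 266 CPM ± 80 (SD, 10 embryos) in Ehmt2Mat embryos. Only 1 was called (9.09%, against 9.35% of all genes tested), Oosp1, higher in Ehmt2Mat embryos (log2 2.70, adjusted p = 0.00277, edgeR). How much of the members' RNA came from the oocyte was not tested.

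Most germline and meiosis genes were detectable at 8C, at levels that varied widely between embryos of the same group. Of the 42 members, 17 had at least 3 counts in all 19 embryos, 22 in some embryos, and 3 (Piwil4, Rad21l and Spo11) in none. A control embryo had at least 3 counts for 32.4 ± 1.6 members (SD, n = 9, range 30 to 35) and an Ehmt2Mat embryo for 33.7 ± 3.8 (SD, n = 10, range 26 to 38). After thinning every embryo to the lowest total, the means were 31.2 and 33.3. Over all genes, 11823 had at least 3 counts in a control and 12874 in an Ehmt2Mat embryo after thinning (means), so both numbers had a higher mean in Ehmt2Mat embryos. The summed level of the members was 922 CPM ± 120 (SD, 9 embryos) in controls and 973 CPM ± 209 (SD, 10 embryos) in Ehmt2Mat embryos. Neither the number detected nor the summed level separated the groups. The lowest numbers detected were 26, in Ehmt2Mat embryo 3, which had the lowest total count (8231646) and the highest Ovgp1 level (2799 CPM), and 28, in Ehmt2Mat embryo 10, with 9.60 CPM of Ovgp1. After thinning, control 7 also had 26 members, with 4.31 CPM of Ovgp1.

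**Figure D1:**
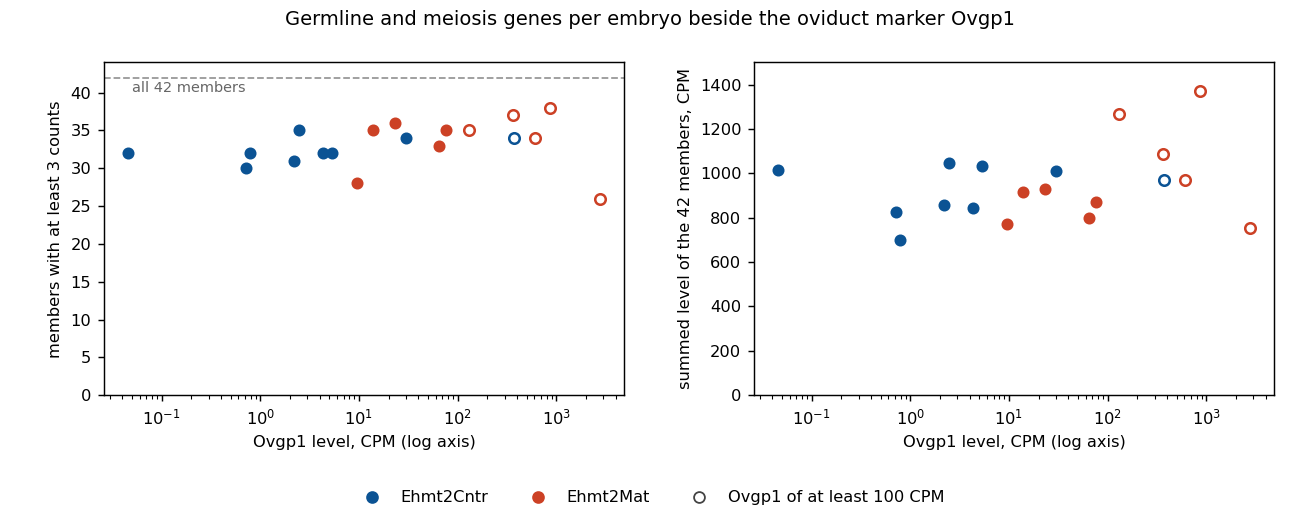
Each point is 1 embryo, with its Ovgp1 level on a logarithmic horizontal axis (CPM), and with the number of members that have at least 3 counts (left) or their summed level in CPM (right) on the vertical axis. Open points mark embryos with at least 100 CPM of Ovgp1, controls are blue and Ehmt2Mat embryos red, and the groups overlap in both panels (30 to 35 against 26 to 38 members).

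Per kilobase of exon the highest member was Tex19.1, a mammal-specific gene known for transposon control in germ cells, with a mean of 97.9 RPKM ± 43.1 (SD, n = 19) over all embryos. It was followed by Dmrtb1, Tex101, Fkbp6 and Syce2, with mean RPKM of 50.5, 40.8, 36.8 and 34.7. This order held in neither group alone. After Tex19.1 (120 RPKM) controls had Syce2, Fkbp6 and Dmrtb1 (46.2, 32.6 and 28.8 RPKM), with Tex101 at 13.9, while after Tex19.1 (77.9 RPKM) Ehmt2Mat embryos had Dmrtb1, Tex101 and Fkbp6 (70.0, 64.9 and 40.6 RPKM), with Syce2 at 24.2. Mael, Sycp3, Piwil2, Hormad1 and Tex12 came next, between 19.7 and 13.1 RPKM. RPKM here is only a rough guide to the order of genes, because reads gather at 3′ ends. Neighbours in the order over all embryos differed by less than the larger of their SDs between embryos, except Tex19.1 and Dmrtb1, the latter with an SD of 24.2 RPKM.

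**Figure D2:**
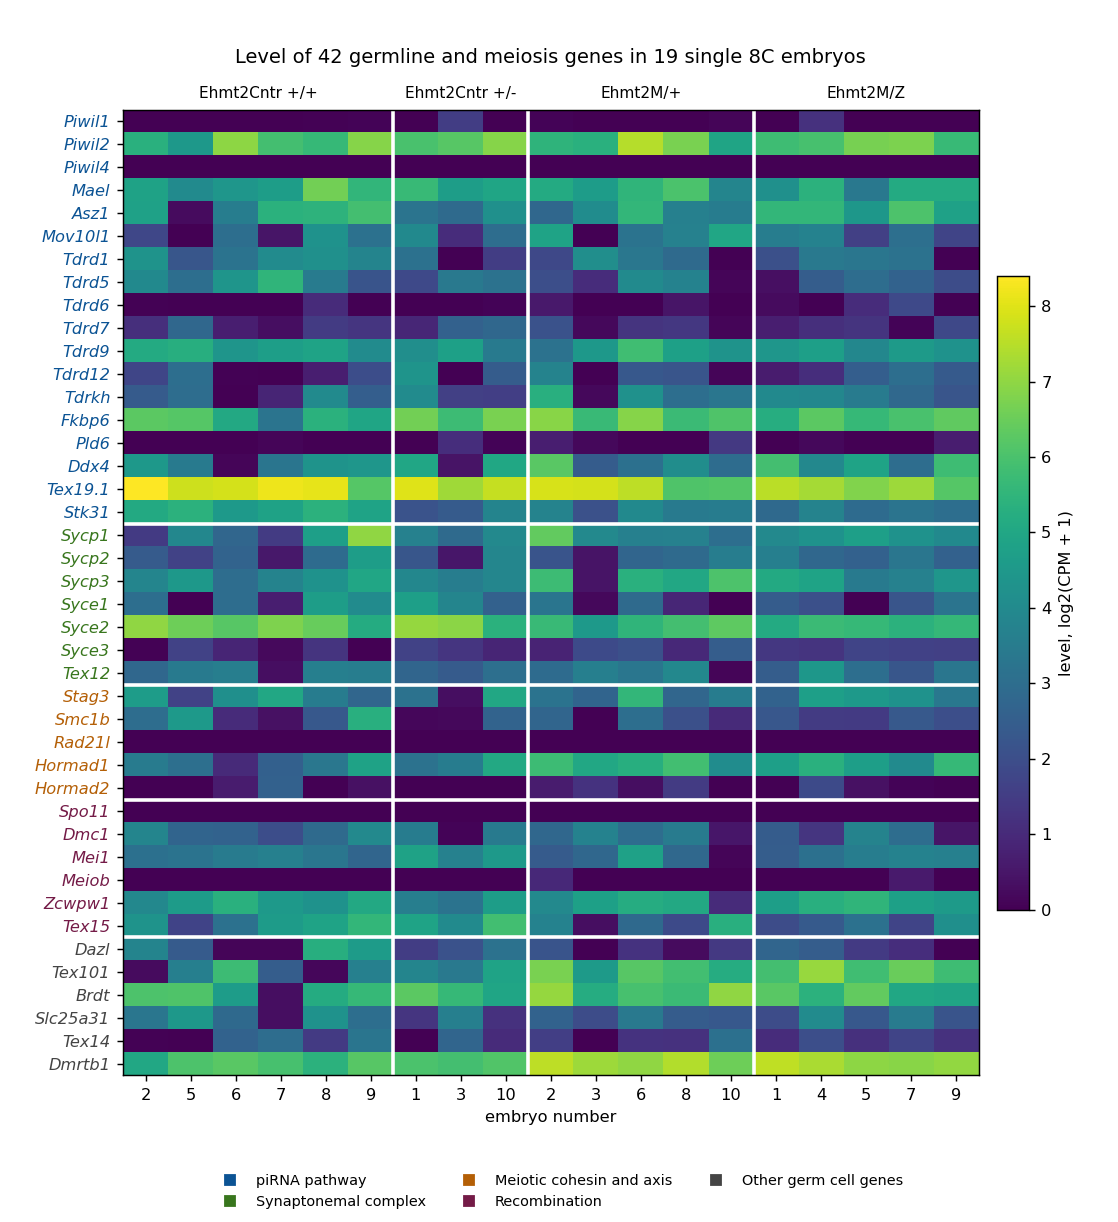
The heat map shows log2(CPM + 1) of each of the 42 members (rows, names coloured by role) in each of the 19 embryos (columns, numbered as in the labels and grouped by maternal and zygotic genotype). Tex19.1 is the brightest row in most controls but not in most Ehmt2Mat embryos. Piwil4, Rad21l and Spo11 are dark throughout, and Dmrtb1 is brighter in all 10 Ehmt2Mat embryos than in any control.

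In the comparison of Ehmt2Mat with Ehmt2Cntr embryos at 8C, a minority of the germline genes differed, and in both directions. The groups also differ in zygotic genotype, because 6 of the 9 controls were +/+ and no Ehmt2Mat embryo was. Loss of maternal G9a therefore cannot be told apart from zygotic genotype in this comparison. Fold changes in zygotic +/- embryos only are given further below. The filter on low counts kept 34 members. Of these, Hormad1, Tex101 and Dmrtb1 were higher and Stk31 and Syce2 were lower in Ehmt2Mat embryos, at an adjusted p under 0.05 by edgeR's quasi-likelihood test with Benjamini-Hochberg adjustment over all 11754 genes tested. The 5 members called are 14.7% of 34, against 9.35% of all genes tested (4.37% higher and 4.98% lower). DESeq2 called the same 5, against 12.7% of the genes it tested. With so few genes this share is near the background and is not a result about the class as a whole. The calls by role given below rest on 3 to 14 tested members each and are not results about the roles. Another 3 members (Tex19.1, Tex15 and Dazl, all lower) had an unadjusted p under 0.05, giving 8 of 34 in all, against 23.3% of all genes. The log2 fold change was above 0 for 15 members and below 0 for 19, with a median of -0.09 against -0.043 over all genes tested. In a whole embryo, a change in the number of cells that express a gene cannot be told apart from a change in RNA per cell.

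**Figure D3:**
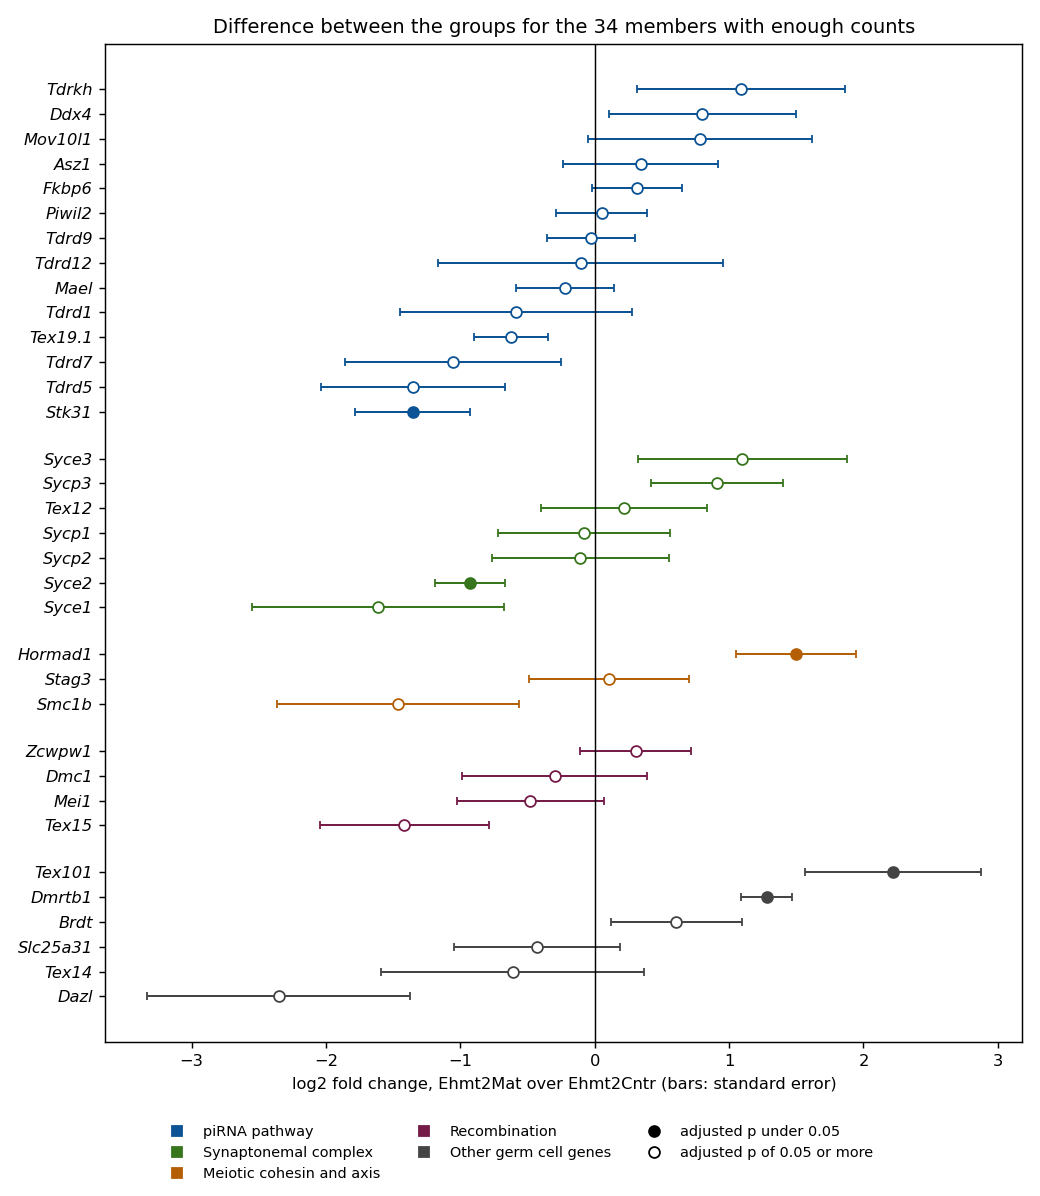
Points give the log2 fold change of Ehmt2Mat over Ehmt2Cntr embryos for the 34 members kept by the filter, with bars of 1 standard error, grouped and coloured by role. Filled points passed an adjusted p of 0.05, 3 of them right of 0 (higher in Ehmt2Mat embryos) and 2 left of it.

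Among the 18 piRNA pathway members, 14 were tested, 1 was lower (Stk31) and 13 did not pass. Stk31, a germ cell kinase with a tudor domain on chromosome 6 (49395604 to 49469501, GRCm38), had 3.42, 27.5 and 40.8 CPM as the lowest, median and highest control and 3.27, 9.23 and 14.8 CPM in Ehmt2Mat embryos. All 10 Ehmt2Mat embryos lay below the control median, yet the groups overlapped. The mean was 23.7 CPM ± 14.2 (SD, 9 embryos) in controls and 9.22 CPM ± 3.50 (SD, 10 embryos) in Ehmt2Mat embryos (log2 fold change -1.36 ± 0.43, SE, adjusted p = 0.0452, edgeR).

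The controls that overlapped were those with 1 functional zygotic copy. The 6 control embryos that were +/+ had 33.3, 40.8, 21.9, 27.5, 40.8 and 28.2 CPM of Stk31 (numbers 2, 5, 6, 7, 8 and 9), while the 3 that were +/- had 3.42, 4.28 and 12.8 CPM (numbers 1, 3 and 10). Every +/+ control was thus above every other embryo of the series, and the +/- controls lay in the range of the Ehmt2Mat embryos. Between +/- and +/+ controls the log2 fold change of Stk31 was -2.20 ± 0.59 (SE), with an unadjusted p of 0.00246 and an adjusted p of 0.9998 by edgeR, and an adjusted p of 0.00390 by DESeq2. With zygotic +/- embryos alone (3 controls and 5 Ehmt2M/+) the difference between maternal genotypes was 0.55 on the log2 scale, turned in direction and not past the threshold (adjusted p = 0.981, edgeR). The call was also lost (adjusted p of 0.0527 to 0.0957, edgeR) when control 2, 5, 6, 7, 8 or 9 or Ehmt2Mat embryo 1, 2, 3, 4, 5, 7, 8 or 9 was left out.

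Tex19.1 had 72.3, 232 and 338 CPM as the lowest, median and highest control and 67.3, 148 and 237 CPM in Ehmt2Mat embryos, so the ranges overlapped. Its log2 fold change was -0.63 ± 0.27 (SE, adjusted p = 0.164, edgeR). Without the 6 embryos of at least 100 CPM Ovgp1 it was -1.30, and then passed the threshold (adjusted p = 0.0407, edgeR).

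The core piRNA machinery gave no call. Piwil2, the PIWI protein MILI, had 21.2 to 124 CPM in controls and 29.0 to 174 CPM in Ehmt2Mat embryos, with a log2 fold change of 0.05 ± 0.34 (SE). Ddx4, the RNA helicase VASA, ranged from 0.0926 to 31.4 CPM and from 4.48 to 75.1 CPM, with a log2 fold change of 0.80 ± 0.69 (SE). Fkbp6, a co-chaperone of PIWI loading, had a median of 53.4 CPM in controls and 64.6 CPM in Ehmt2Mat embryos. Mael, needed for transposon silencing, had medians of 27.5 and 33.9 CPM, but means of 36.9 and 31.7 CPM and a log2 fold change of -0.22 ± 0.36 (SE). Asz1, a germ granule scaffold at mitochondria, had medians of 17.8 and 24.1 CPM. The group means of these 5 genes differed by less than the larger SD within a group.

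The helicases Mov10l1 and Tdrd9 had log2 fold changes of 0.78 and -0.03. Among the other tudor domain genes, Tdrd5 had the change farthest from 0, -1.35 ± 0.69 (SE, adjusted p = 0.237, edgeR), with 2.61 to 43.9 CPM in controls and 0.0820 to 15.2 CPM in Ehmt2Mat embryos. Tdrd1, Tdrd7 and Tdrd12 had log2 fold changes of -0.59, -1.06 and -0.10, with standard errors between 0.80 and 1.06. Tdrkh had 1.09 ± 0.77 (SE), but 36.7% of its exon bases are shared with Oaz3 on the opposite strand, and the counting used no strand, so the count of Tdrkh is uncertain to that extent.

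In the synaptonemal complex list, all 7 members were tested, Syce2 was lower and 6 did not pass. Syce2, a central element protein on chromosome 8 (84872111 to 84888221), had 34.7, 93.2 and 135 CPM as the lowest, median and highest control and 21.9, 48.2 and 77.9 CPM in Ehmt2Mat embryos. All 10 Ehmt2Mat embryos were below the control median, and controls 6, 9 and 10 were within the Ehmt2Mat range. Means were 91 CPM ± 36.4 (SD, 9 embryos) and 47.7 CPM ± 14.8 (SD, 10 embryos). The level was 1.91 times as high in controls, a log2 fold change of -0.93 ± 0.26 (SE, adjusted p = 0.0257, edgeR), and the call stood whichever embryo was left out. Without the 6 embryos of at least 100 CPM Ovgp1 the log2 fold change was -0.83 and did not pass (adjusted p = 0.164, edgeR).

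The other members of the complex gave no call. Syce1, another central element protein, had medians of 7.18 CPM in controls and 3.37 CPM in Ehmt2Mat embryos and a log2 fold change of -1.62 ± 0.94 (SE). Syce3 and Tex12, also of the central element, had 1.1 ± 0.78 and 0.22 ± 0.62 (SE). Sycp1, the transverse filament, had medians of 11.9 and 14.7 CPM, but single embryos far above them, 128 CPM in control 9 and 83.0 CPM in Ehmt2Mat embryo 2. Its log2 fold change was -0.08 ± 0.64 (SE) by edgeR and 1.07 by DESeq2, neither past the threshold, so no direction is given. Of its 50-base windows, 5.47% also occur in another transcript. Sycp2 and Sycp3, of the lateral elements, had log2 fold changes of -0.11 ± 0.66 and 0.91 ± 0.49 (SE), and 52.2% of the exon bases of Sycp3 are shared with Chpt1 on the opposite strand, so the count of Sycp3 is uncertain.

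In the cohesin and axis list, 3 of 5 members were tested and 1 was higher. Hormad1, a HORMA domain protein of the unsynapsed axis on chromosome 3 (95559677 to 95587671), had 1.02, 9.09 and 32.6 CPM as the lowest, median and highest control and 15.4, 35 and 56.9 CPM in Ehmt2Mat embryos. All 10 Ehmt2Mat embryos were above the control median and 5 were above every control, with controls 9 and 10 inside the Ehmt2Mat range. Means were 12.4 CPM ± 10.5 (SD, 9 embryos) and 34.9 CPM ± 14.6 (SD, 10 embryos), a 2.82-fold difference (log2 1.5 ± 0.45, SE, adjusted p = 0.0351, edgeR). Of its 50-base windows, 22.9% also occur in the transcript of another gene, mainly Gm15529, which has no row in the deposited counts, so the count of Hormad1 is uncertain to that extent. The call was lost (adjusted p of 0.0504 to 0.064, edgeR) without control 1, 2, 3, 5, 7 or 8 or Ehmt2Mat embryo 2, 4, 6, 8 or 9. Without the 6 embryos of at least 100 CPM Ovgp1, the log2 fold change was 1.70 and the adjusted p 0.131 (edgeR).

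The cohesin subunits Stag3 and Smc1b had log2 fold changes of 0.10 ± 0.60 and -1.46 ± 0.90 (SE), neither past the threshold. Rad21l, the meiotic kleisin, had no count in any embryo. Hormad2, outside the filter, had at least 3 counts in 3 controls and 6 Ehmt2Mat embryos, with at most 66 and 89 counts.

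Of the 6 recombination genes, 4 were tested and none passed in edgeR, with Tex15 alone at an unadjusted p under 0.05. Tex15, needed for repair of meiotic breaks, had 2.26, 23.3 and 56.6 CPM as the lowest, median and highest control and 0.242, 5.29 and 38.5 CPM in Ehmt2Mat embryos. Of the 10 Ehmt2Mat embryos, 9 were below the control median, while embryo 10, at 38.5 CPM, was above it. The log2 fold change was -1.42 ± 0.63 (SE, adjusted p = 0.168, edgeR), and without Ehmt2Mat embryo 10 it was -2.03, with an adjusted p of 0.0298. Without the 6 embryos of at least 100 CPM Ovgp1 it was -0.66 (adjusted p = 0.729, edgeR). Dmc1, the meiotic recombinase, had -0.30 ± 0.69, Mei1, needed for break formation, -0.48 ± 0.55, and Zcwpw1, a histone mark reader, 0.30 ± 0.41 (log2 fold change and SE). Zcwpw1 shares 8.21% of its exon bases with Pilra on the opposite strand. Spo11, the enzyme that makes the breaks, had no count in 19 embryos. For a single embryo, 0 counts do not exclude an expected count of up to 3 (95% limit for independent reads). Meiob, a single-stranded DNA binding protein, had 17 counts in Ehmt2Mat embryo 2, 11 in Ehmt2Mat embryo 7 and 0 in the other embryos.

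All 6 other germ cell genes were tested and 2 were higher, against 4.37% of all genes tested, too few for a result about this role. Dmrtb1, a DM domain transcription factor of spermatogonia on chromosome 4 (107676290 to 107684230), had 64.4, 32.1, 57.7, 65.5, 76.0, 60.5, 41.7, 73.1 and 68.8 CPM in controls 1 to 3 and 5 to 10. In Ehmt2Mat embryos 1 to 10 it had 195, 187, 143, 159, 126, 129, 120, 174, 132 and 93.2 CPM. Every Ehmt2Mat embryo was above every control. No other member separated the groups in this way, and of all genes tested 0.34% did so upwards and 0.179% downwards (0.519% in either direction). Means were 60.0 CPM ± 14.5 (SD, 9 embryos) and 146 CPM ± 32 (SD, 10 embryos), a 2.43-fold difference (log2 1.28 ± 0.19, SE, adjusted p = 0.000326, edgeR). It passed whichever embryo was left out (log2 1.20 to 1.34), and without the 6 embryos of at least 100 CPM Ovgp1 (log2 1.13, adjusted p = 0.0231, edgeR).

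Tex101, a membrane-anchored glycoprotein of germ cells needed for sperm fertility, lies on chromosome 7 (24668012 to 24672050). It had 13.1, 0.181, 9.52, 11.5, 53.6, 4.62, 0.115, 11.6 and 28.1 CPM in controls 1 to 3 and 5 to 10. In Ehmt2Mat embryos 1 to 10 it had 58.6, 103, 22.8, 136, 56.0, 73.2, 87.9, 56.5, 53.9 and 36.1 CPM. Of these 10, 8 were above every control, and controls 6 and 10 were within the Ehmt2Mat range. Means were 14.7 CPM ± 16.8 (SD, 9 embryos) and 68.4 CPM ± 33.2 (SD, 10 embryos), a 4.65-fold difference (log2 2.22 ± 0.66, SE, adjusted p = 0.0331, edgeR). The call was lost (adjusted p of 0.0514 to 0.0609, edgeR) without control 1, 3, 5, 7 or 9 or Ehmt2Mat embryo 2 or 4, and without the 6 embryos of at least 100 CPM Ovgp1 the log2 fold change was 2.16 and the adjusted p 0.195.

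Dazl, an RNA-binding translation regulator, was low in both groups, with 0.0769, 4.34 and 37.3 CPM as the lowest, median and highest control and 0, 1.5 and 5.75 CPM in Ehmt2Mat embryos. The high values were controls 2, 8 and 9, and 7 of the 9 controls and 8 of the 10 Ehmt2Mat embryos had at least 3 counts. The log2 fold change was -2.35 ± 0.98 (SE, adjusted p = 0.139, edgeR). Brdt, the testis bromodomain protein, had medians of 48.5 and 56.8 CPM and a log2 fold change of 0.61 ± 0.49 (SE). Slc25a31, the ADP/ATP carrier of germ cells, had -0.43 ± 0.62 and Tex14, of intercellular bridges, -0.61 ± 0.98 (log2 fold change and SE). The summed level of these 6 genes was 141 CPM ± 32 (SD, 9 embryos) in controls and 292 CPM ± 69 (SD, 10 embryos) in Ehmt2Mat embryos, and most of that difference is Dmrtb1 and Tex101.

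**Figure D4:**
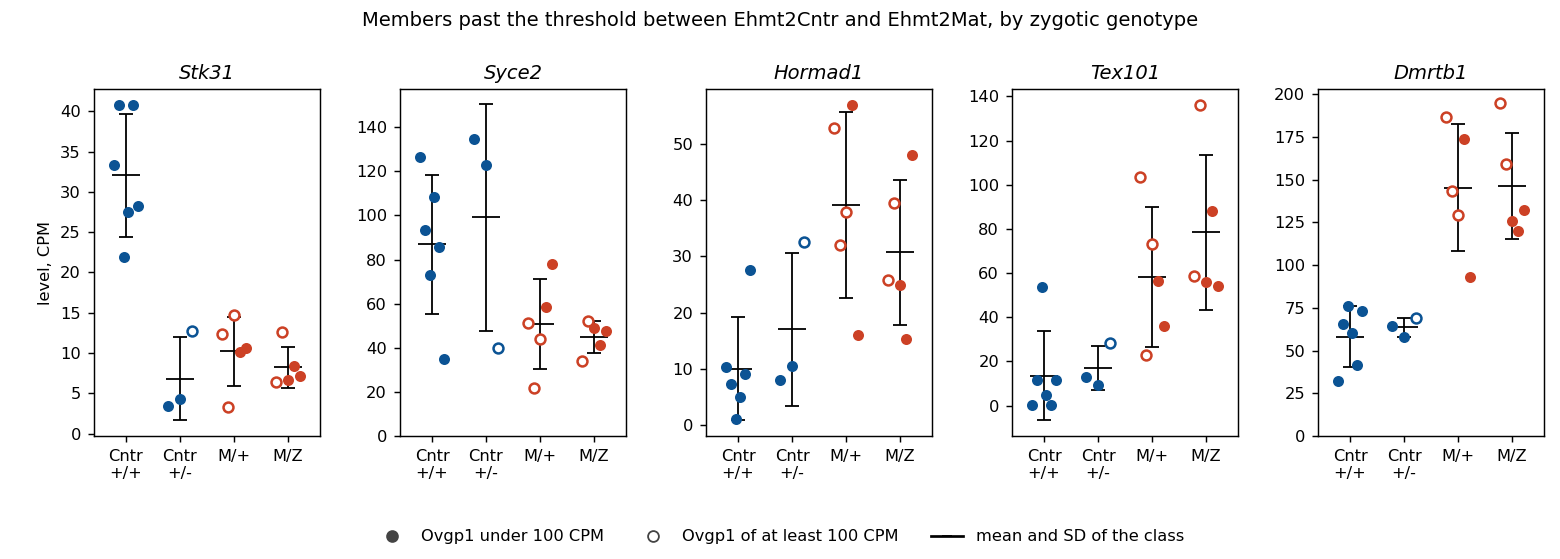
The level in CPM (vertical axis, each panel with its own scale) of the 5 members past the threshold is plotted for each embryo, by maternal and zygotic genotype, with the mean and SD of each class as black bars. Open points are embryos with at least 100 CPM of Ovgp1. Stk31 is high in the 6 +/+ controls alone (21.9 to 40.8 CPM), while Dmrtb1 is at least 93.2 CPM in both Ehmt2Mat classes and at most 76.0 CPM in both control classes.

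The 8 members that the filter left out had no count, or reached 3 counts in at most 9 of the 19 embryos. Hormad2, Meiob, Tdrd6 and Pld6 reached 3 counts in more Ehmt2Mat embryos than controls, and Piwil1 in 1 of each group. The mean number of all genes detected was also higher in Ehmt2Mat embryos. Besides Piwil4, Rad21l and Spo11, which had no count, and Meiob and Hormad2 above, Piwil1, the PIWI protein MIWI, had 31 counts in control 3, 42 in Ehmt2Mat embryo 4 and at most 1 elsewhere. Tdrd6 had at least 3 counts in 1 control (27) and 4 Ehmt2Mat embryos (9 to 54). Pld6, the mitochondrial enzyme of piRNA biogenesis, reached 3 counts in 1 control (19) and 4 Ehmt2Mat embryos (4 to 20). In a fit without the filter, the 5 of these with any count had no adjusted p under 0.05 in edgeR, nor did the 3 to which DESeq2 gave an adjusted p (Tdrd6, Pld6 and Hormad2). Meiob alone had an unadjusted p under 0.05 in edgeR (adjusted p = 0.0584).

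The zygotic copy of Ehmt2 was then compared within each maternal genotype. Between Ehmt2M/Z and Ehmt2M/+ embryos (5 against 5), 0 of 34 members passed in edgeR, with 1 at an unadjusted p under 0.05, against 0% of all 12195 genes tested (270 at an unadjusted p under 0.05, and 15 called by DESeq2, none a member). That member was Asz1, with 41.3 CPM ± 17.8 in Ehmt2M/Z and 18.2 CPM ± 16.4 in Ehmt2M/+ embryos (SD, n = 5 each), a log2 fold change of 1.18 ± 0.53 (SE, adjusted p = 0.9997, edgeR). Dmrtb1 had 146 CPM ± 31 and 145 CPM ± 37 (SD, n = 5 each), Hormad1 30.7 CPM ± 12.9 and 39.1 CPM ± 16.5, and Tex101 78.5 CPM ± 35 and 58.4 CPM ± 31.7, with overlapping values in each. Between +/- and +/+ controls (3 against 6), 0 of 34 members passed in edgeR, with Stk31 alone at an unadjusted p under 0.05, against 0% of 12646 genes (572 at an unadjusted p under 0.05, and 107 called by DESeq2, Stk31 among them). Dmrtb1 had 63.7 CPM ± 5.6 (SD, 3 embryos) in +/- and 58.2 CPM ± 17.6 (SD, 6 embryos) in +/+ controls, and Syce2 99.1 CPM ± 51.6 and 86.9 CPM ± 31.5.

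**Figure D5:**
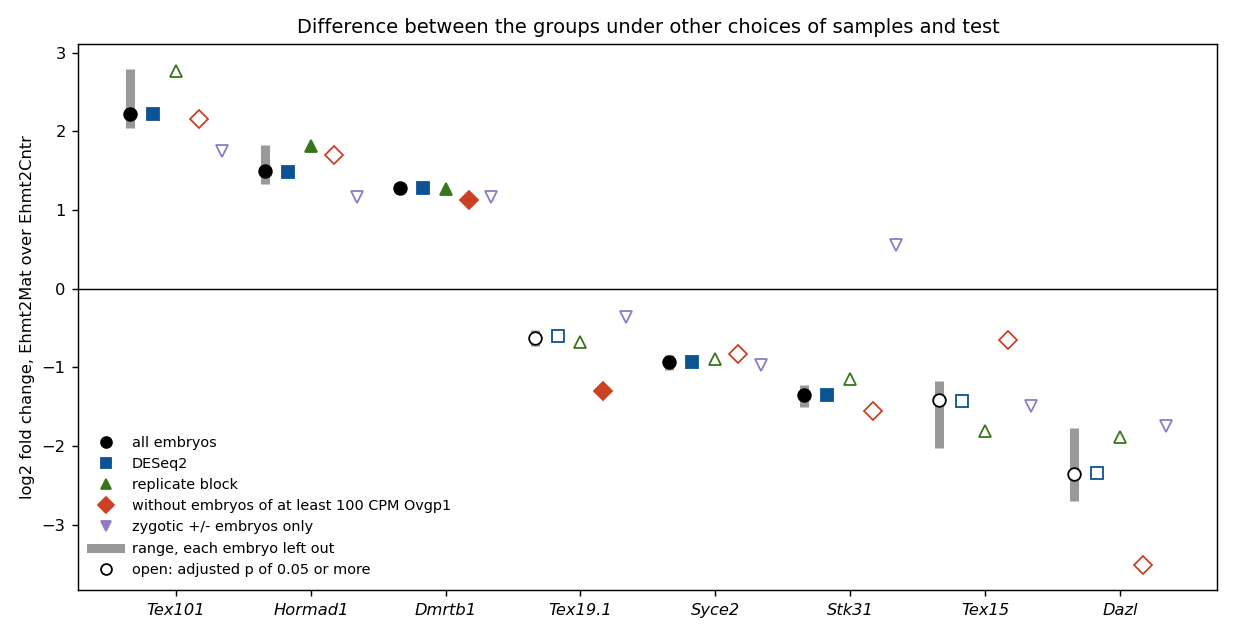
Each of the 8 members with an unadjusted p under 0.05 is shown with its log2 fold change of Ehmt2Mat over Ehmt2Cntr (vertical axis) with all embryos, by DESeq2, with the embryo number as a block, without embryos of at least 100 CPM Ovgp1, and in zygotic +/- embryos only. Filled symbols passed an adjusted p of 0.05 and grey bars span the fits with each embryo left out in turn. Dmrtb1 is filled in all but the +/- embryos (1.13 to 1.28), and Stk31 turns from -1.36 to 0.55 in the +/- embryos.

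The counts of calls in 4 further lists are read against the 9.35% of all genes tested, and with 1 or 2 calls each they are not results about the lists. Of 31 other meiosis genes, 26 were tested, 1 was lower and 25 did not pass, with a median log2 fold change of -0.24. Msh4 and Rec8, the uncalled genes farthest from 0, had 1.97 ± 1.20 and -1.95 ± 1.12 (log2 fold change and SE). Of 18 other piRNA genes, 16 were tested and 1 was higher, Prmt5, the arginine methyltransferase that modifies PIWI proteins, with 166 CPM ± 73 and 286 CPM ± 73 (log2 0.78, adjusted p = 0.0248, edgeR). Kif17 and Gtsf1 had -1.56 ± 0.95 and -0.77 ± 0.83 (log2 fold change and SE).

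Of 26 genes for repressors of germline genes, Ehmt2 included, all were tested, 2 were lower and 24 did not pass, with a median log2 fold change of -0.29 against -0.043 over all genes. E2f6 had 34.1 CPM ± 14.8 (SD, 9 embryos) in controls and 12 CPM ± 9.3 (SD, 10 embryos) in Ehmt2Mat embryos (log2 fold change -1.5 ± 0.43, SE, adjusted p = 0.0287, edgeR), which also passed without the 6 embryos of at least 100 CPM Ovgp1 (-2.0, adjusted p = 0.0378). Dnmt3b, a de novo DNA methyltransferase, had 66.3 CPM ± 49.2 and 30.4 CPM ± 9.8 (log2 -1.12, adjusted p = 0.0287, edgeR). Yaf2 and Zbtb1 had -1.04 ± 0.46 and -0.84 ± 0.57 (log2 fold change and SE), short of the threshold. Among 20 germ cell regulators, 10 were tested, 1 was higher and 1 lower. Tfap2c, a transcription factor of germ cells and of the trophectoderm, had 214 CPM ± 66 and 360.5 CPM ± 111 (log2 0.75, adjusted p = 0.0183, edgeR). Prdm14, a regulator of germ cell fate and pluripotency, had 17 CPM ± 8.7 and 4.05 CPM ± 2.79 (log2 -2.07, adjusted p = 0.0346, edgeR). Ifitm3 and Nobox had 1.44 ± 1.34 and -1.05 ± 1.18 (log2 fold change and SE).

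The number of members called was 4 without the filter on low counts (against 5.67% of all genes), 2 with the embryo number as a block (against 6.05%) and 0 in zygotic +/- embryos only (against 0.00746%). In those +/- embryos (3 controls and 5 Ehmt2M/+), the log2 fold change was 1.17 for Dmrtb1, 1.76 for Tex101, 1.17 for Hormad1 and -0.97 for Syce2. These kept the direction they had with all embryos, while Stk31 (0.55) did not. Without the 6 embryos of at least 100 CPM Ovgp1, 2 members passed (Dmrtb1 higher and Tex19.1 lower), against 2.69% of all genes tested in that smaller fit. Hormad1, Tex101, Syce2 and Stk31 kept their direction there, and whether the Ovgp1 level or the smaller number of embryos bears on their calls was not tested.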

How the data were processed

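Single 8C embryos were sequenced as single-end 50 bp reads from amplified cDNA (HiSeq1500 in the labels, HiSeq4000 in the methods). The authors deposited raw counts per gene and embryo, with no normalization. In the file headers, featureCounts v1.5.0-p1 counted exons of Ensembl release 82 (GRCm38), with an overlap of at least 10 bases, multi-mapping reads kept, reads counted for every gene they overlap and no strand. The submitters' processing notes also name TopHat2, DESeq2 and mm10.

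From these counts, edgeR 4.0.16 (R 4.3.3) was fitted to all genes kept by filterByExpr, with TMM scaling, the quasi-likelihood test, Benjamini-Hochberg adjustment and a threshold of 0.05. Groups came from the labels. Separate fits compared zygotic genotypes. Ehmt2 was also compared by an exact permutation test on log2(CPM + 1) over 92378 splits. Members, lists and promoter motifs were chosen with earlier results of these data known, so counts over members are descriptions. The rule for naming genes took every member, and in other lists the genes called (up to 6) and the 2 uncalled genes farthest from 0. In the lists, Ankrd31 and Muc16 matched no symbol. The values of 1 gene of the other meiosis list are not reported here. On simulated data with 67, 67 and 66 genes changed by log2 1, 1.5 and 2, this fit of 11754 genes recovered 17.9%, 46.3% and 60.6% of them. Small changes were thus mostly missed in the simulation. The simulation changed far fewer genes than the 1099 called in the data, which makes its adjustment stricter, so recovery in the data may be higher. The highest correlation between embryos was 0.942, with 0 identical pairs. Alternatives were DESeq2 1.42.0, RLE scaling, no filter, a mean of at least 1 CPM, thinned counts, the embryo number as a block, +/- embryos only, each embryo left out and, after seeing the data, embryos of at least 100 CPM Ovgp1 left out. Counting error is only a lower bound on the uncertainty of detection, and amplified reads are not independent molecules.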

Additional observations from a re-analysis of the deposited data

Results flagged for a closer look

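The groups examined were 34 members, their number detected and their summed level, each in controls and in Ehmt2Mat embryos. In 9 of these 72 groups of embryos, the highest or lowest embryo stood apart from the rest by Dixon's criterion. Chance alone meets it in about 1 group in 20 where values are normally distributed and groups independent. Most of the values below are low ones near 0 and members share embryos, so the 9 are not read as an excess. Values are log2(CPM + 1). Among Ehmt2Mat embryos, embryo 2 was high in Sycp1 (6.39, the next at 4.75), embryo 3 was low in Sycp2 (0.447) and in Sycp3 (0.447), and embryo 10 was low in Tex12 (0.114), Mei1 (0.114) and Zcwpw1 (1.05). Among controls, embryo 7 was low in Tex12 (0.300) and Brdt (0.300), and embryo 3 was low in Dmc1 (0.0844). Low values recurred in Ehmt2Mat embryos 3 and 10, which also had the fewest members detected (26 and 28). None of the 5 members called between the groups was among them.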

How the results depend on the processing

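DESeq2, RLE scaling, a mean of at least 1 CPM and thinned counts called the same 5 members, and no filter called 4 of them (not Stk31). The count was 2 with embryo numbers taken as a replicate block (Hormad1 and Dmrtb1), 0 in +/- embryos only, 2 without embryos of at least 100 CPM Ovgp1 and 2 to 6 with an embryo left out. The embryo numbers do not pair the samples: over 9 shared numbers the correlation of deviations ran from -0.11 to 0.117, and 1 control correlated best with its own number. All genes called numbered 2019 by DESeq2, 693 with the replicate block, 1 in +/- embryos and 321 without the Ovgp1 embryos. For the zygotic comparisons DESeq2 called 15 genes between Ehmt2M/Z and Ehmt2M/+ embryos, and 107 genes and 1 member between controls, where leaving out an embryo gave 0 to 1 genes in edgeR.

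Other meiosis genes called fell to 0 without the filter, in +/- embryos and without the Ovgp1 embryos, and were 0 to 2 with an embryo left out. Other piRNA genes fell to 0 in +/- embryos and without the Ovgp1 embryos. Repressors were 1 with the block, 0 in +/- embryos, 1 without the Ovgp1 embryos and 1 to 3 with an embryo left out. Germ cell regulators were 4 by DESeq2, 0 with the block, in +/- embryos and without the Ovgp1 embryos, and 1 to 3 with an embryo left out. At 1 count, 34.3 members were detected per control, and summed RPKM were 394 in controls and 449 in Ehmt2Mat embryos.

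The log2 fold change changed sign, in uncalled members apart from Stk31, in +/- embryos for Piwil2 (-0.14), Mael (0.054), Tdrd1 (1.1), Tdrd9 (0.55), Fkbp6 (-0.093), Stk31 (0.55), Sycp1 (1.20), Smc1b (0.78), Dmc1 (0.041), Slc25a31 (0.15) and Tex14 (0.11). It did so with the block for Tdrd12 (1.12), Sycp1 (0.65), Sycp2 (0.36) and Tex14 (0.49), by DESeq2 for Sycp1 (1.07), without the filter for Tdrd9 (0.010), and without the Ovgp1 embryos for Sycp2 (0.25) and Tex12 (-0.13). With an embryo left out, it ranged for Piwil2 from -0.18 to 0.17, Mael -0.40 to 0.10, Tdrd9 -0.28 to 0.080, Tdrd12 -0.54 to 0.80, Sycp1 -0.60 to 1.11, Sycp2 -0.29 to 0.46, Tex12 -0.029 to 0.37 and Stag3 -0.25 to 0.34. Fewer embryos enter the +/- and Ovgp1 fits, and the cause of the other changes was not tested.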
